A study of Gallus gallus with 6 samples.

Results

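The fibroblast growth factor (FGF) ligands and receptors were followed in wounds of the chick chorioallantoic membrane (CAM), the vascular membrane that lies under the egg shell. The members were 6 ligand genes, FGF1, FGF2, FGF7, FGF10, FGF12 and FGF13, and 4 receptor genes, FGFR1, FGFR2, FGFR3 and FGFRL1. Every probe set annotated with 1 of these symbols was taken, and the brightest probe set of a gene was described first. All 10 genes were found, with 12 ligand and 12 receptor probe sets, which made 24 of the 38439 probe sets tested.

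Tissue came from Brown Leghorn eggs cultured for 10 days, 3 days in the shell and 7 days in a dish. The CAM was then injured with a scalpel, its epithelium was scraped away and the wound was covered with a nylon grid. After 6 days, wound tissue and unwounded control CAM of 3 eggs were collected, and each sample was hybridised to 1 Affymetrix chicken GeneChip, giving 3 wound arrays and 3 control arrays. The groups differ by the injury and the grid together, and the control is uninjured CAM of the same eggs, so there was no grid alone and no other time point.

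Secreted FGFs bind receptor tyrosine kinases of the FGFR family together with heparan sulfate chains on the cell surface and in the matrix. Bound receptors pass the signal through adaptors to the RAS, ERK and PI3K pathways, and the signal is held back by Sprouty and SPRED proteins and by phosphatases. In skin repair in mammals, FGF2 is known as a growth factor for fibroblasts and endothelial cells, while FGF7 and FGF10 are made by mesenchymal cells and act on epithelium through FGFR2.

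Values are log2 intensities from robust multi-array averaging (RMA), a procedure that summarises the probes of a set. The medians of the 6 arrays lay between 3.01 and 3.05. The comparison was made with limma without pairing of the samples, with Benjamini-Hochberg adjustment of p across the 38439 probe sets. The words rose and fell are kept for an adjusted p under 0.05 in this unpaired fit. Of all probe sets, 902 passed, which is 2.35%, with 785 higher (2.04%) and 117 lower in wounds (0.304%). After quantile normalization 121 were higher and 56 lower.

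Of the 24 FGF probe sets, 0 passed the test with limma in either direction. With the replicate number as a block 0 passed, against 0.819% of all probe sets. The exact rank-sum test also passed 0, but it cannot decide here. Its p cannot go below 0.1 with so few arrays, and 0 of all 38439 probe sets passed it. At an unadjusted p under 0.05 in the unpaired limma fit there was 1 of the 24, that of FGFR1, which is to be read against 14.4% of all probe sets. With the replicate block, limma gave such a p for the dimmer FGFRL1 probe set (0.00893), FGFR1 (0.0322) and the second FGFR2 probe set (0.0449). The share of all probe sets at that level was not taken for the block fit. In wounds 10 of the 24 probe sets were above control and 14 below, with a median log2 difference of -0.01, against 0.0011 over all probe sets. Groups did not overlap for 1 probe set that was higher in wounds, that of FGF2, and for 1 that was lower, that of FGFR1. Of all probe sets, 13.7% were higher and 6.12% lower without overlap.

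The levels fell into a dim ligand group and a receptor group that spanned a wide range. Mean log2 intensity was at least 4 for 7 of the 24 probe sets, all of them of FGFR2, FGFR3 or FGFRL1. The level was above the array's median on all 6 arrays for 11 probe sets and on no array for 10. Probe sets have affinities of their own, so their levels give no order of abundance between genes. The values carry no detection call, and whether the dim probe sets measured their transcripts was not tested.

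**Figure D1:**
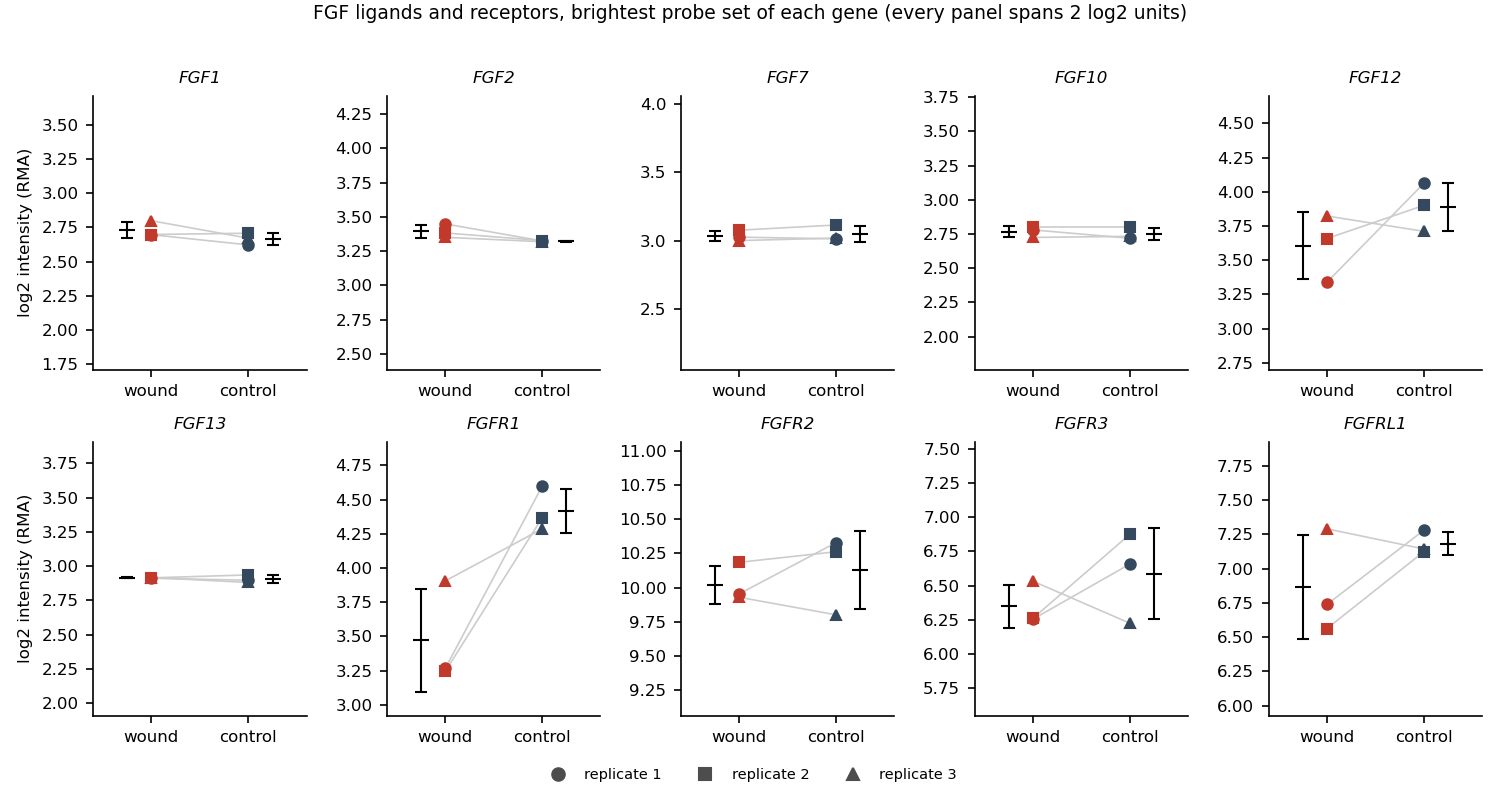
RMA log2 intensity of the brightest probe set of each of the 10 FGF genes in wound (left, red) and control tissue (right, dark), with lines joining equal replicate numbers and bars giving mean ± SD (n = 3 each). FGFR1 is lower on all 3 wound arrays, and the ligands other than FGF12 stay near the bottom of the intensity range.

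FGF1 and FGF2 are ligands without a classical signal peptide that bind several FGF receptors, FGF1 all of them. FGF2 gave 3.45, 3.38 and 3.35 in wounds 1 to 3, against 3.32, 3.33 and 3.32 in controls 1 to 3. Every wound was above every control, but the distance was small: the log2 difference was 0.07 (SE 0.029), a 1.05-fold level, with an adjusted p of 0.380 in limma. The control values lay very close together for this probe set.

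The brightest FGF1 probe set gave 2.70, 2.70 and 2.80 in wounds, against 2.62, 2.71 and 2.67 in controls. The groups overlapped, and the log2 difference of 0.06 (95% interval -0.04 to 0.17) had an adjusted p of 0.631 in limma. The other FGF1 probe sets differed by -0.01 and 0.01. All 3 lay under the median of every array.

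FGF7, also called keratinocyte growth factor, and FGF10 signal from mesenchyme to epithelium. The brighter FGF7 probe set gave 3.03, 3.08 and 3.0 in wounds, against 3.01, 3.11 and 3.02 in controls, a log2 difference of -0.01 (95% interval -0.11 to 0.08; adjusted p = 0.984, limma). The dimmer one differed by -0.02. The single FGF10 probe set gave 2.78, 2.80 and 2.72 in wounds, against 2.72, 2.80 and 2.73 in controls, a log2 difference of 0.02 (95% interval -0.07 to 0.10; adjusted p = 0.956, limma). Wound and control values were intermixed for both genes, and the intervals are narrow on a scale where both probe sets were dim.

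FGF12 and FGF13 are FGF homologous factors, which stay inside the cell and bind voltage-gated sodium channels rather than activating FGF receptors in the usual way. The FGF12 probe set was above the median of every array and gave 3.34, 3.66 and 3.82 in wounds, against 4.06, 3.90 and 3.71 in controls. The ranges overlapped because wound 3 was above control 3. Its log2 difference was -0.28 (95% interval -0.70 to 0.13), a fold of 0.821, with an adjusted p of 0.577 in limma.

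FGF13 was read by 4 probe sets, and its brightest gave 2.91, 2.91 and 2.92 in wounds, against 2.90, 2.94 and 2.88 in controls. This is a log2 difference of 0.01, smaller than the spread of the controls. A dimmer FGF13 probe set gave 3.21, 2.73 and 2.70 in wounds, against 2.71, 2.74 and 2.72 in controls. Its log2 difference of 0.16 (adjusted p = 0.818, limma) came from wound 1, the only array on which it stood out. The remaining FGF13 probe sets differed by -0.03 and 0.01.

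The sodium channel chains, the partners of FGF12 and FGF13, were dim as well. Of 12 listed chains 9 were measured, each with a mean under 4, and 0 passed the test. None reached an unadjusted p under 0.05. Their log2 differences ran between -0.03 and 0.0025, with a median of -0.0056.

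Among the receptors, FGFR1 had the largest difference between wound and control. FGFR1 is the FGF receptor tyrosine kinase typical of mesenchymal and endothelial cells. Its only probe set gave 3.27, 3.25 and 3.91 in wounds, against 4.60, 4.37 and 4.29 in controls. No wound reached the lowest control, and wound 3 was the nearest to it.

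The mean of FGFR1 was 3.47 ± 0.38 in wounds and 4.42 ± 0.16 in controls (SD, n = 3 each). The log2 difference was -0.94 (SE 0.22, 95% interval -1.50 to -0.39), a fold of 0.519. It did not pass the test, with an unadjusted p of 0.00770 and an adjusted p of 0.123 in limma, and 0.219 with the replicate block. Without wound 3 the log2 difference was -1.16 and the adjusted p was 0.0325, so 1 array decided the call. FGFR1 was lower in 3 of 3 pairs of equal replicate number, with log2 differences of -1.33, -1.12 and -0.38.

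In bulk tissue, fewer cells of a type and less RNA per cell cannot be told apart, so marker genes of the cell types in the CAM were summed on the linear intensity scale for each array. The endothelial sum was 2489, 2718 and 4188 in wounds 1 to 3, against 5383, 5097 and 5994 in controls 1 to 3. The fibroblast sum was 31588, 28067 and 50680 in wounds, against 46238, 48936 and 50406 in controls, and the sum of smooth muscle and pericyte markers was 4000, 2220 and 10166 in wounds, against 7769, 7125 and 5888 in controls. Wound 3, the highest of the wounds in FGFR1, was also the highest of the wounds in each of these sums. The brightest probe sets weigh most in such a sum. In the median log2 level of these lists, wound 3 was again the highest wound, at 6.365 for endothelial, 11.7 for fibroblast and 9.444 for smooth muscle and pericyte markers.

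By single markers, 0 of 14 endothelial genes passed the test in limma, but 7 did at a minimum mean of 4 and 5 without wound 3. At an unadjusted p under 0.05 there were 11, beside 14.4% of all probe sets, and 11 were lower in wounds without overlap, beside 6.12%. Of the 13548 probe sets with a mean of at least 4, 4546 had such a p and 1361 were lower without overlap. Of 13 fibroblast genes, 11 were below control, with a median log2 difference of -0.42, against 0.0011 over all probe sets. Without overlap 2 were higher and 4 lower, beside 13.7% and 6.12% of all probe sets. In the test 1 rose, the filament protein vimentin (VIM), and 1 fell, the transcription factor TCF21, beside 2.04% and 0.304%. With the replicate block 0 passed, beside 0.819% of all probe sets. Of 9 smooth muscle and pericyte genes 0 passed (3 without wound 3, all lower), and 2 had an unadjusted p under 0.05. All 9 were below control, with a median log2 difference of -0.81. Mean log2 intensity was at least 4 for 13 of the 14 endothelial, 13 of the 13 fibroblast and 8 of the 9 smooth muscle and pericyte genes. The part of these cell types in the FGFR1 difference was not tested.

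FGFR2 is the receptor tyrosine kinase whose epithelial form binds FGF7 and FGF10. It was read by 5 probe sets, 3 of them bright. The brightest gave 9.95, 10.18 and 9.93 in wounds, against 10.33, 10.26 and 9.80 in controls, a log2 difference of -0.11 (95% interval -0.55 to 0.33; adjusted p = 0.934, limma). Here every wound was within the range of the controls, above control 3 and below controls 1 and 2.

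The second FGFR2 probe set gave 9.69, 10.29 and 9.96 in wounds, against 9.57, 9.77 and 9.57 in controls. It was higher in wounds in 3 of 3 pairs, and wound 1 lay under control 2. The log2 difference was 0.34 (95% interval -0.10 to 0.78), with an adjusted p of 0.501 in limma and 0.263 with the replicate block. Another bright one gave 7.71, 7.88 and 7.59 in wounds, against 7.77, 7.39 and 7.22 in controls, a log2 difference of 0.26 (95% interval -0.17 to 0.70; adjusted p = 0.639, limma). The bright FGFR2 probe sets therefore differed in sign, with each interval spanning 0. The dim ones differed by -0.02 and -0.01.

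The bright end of the scale depended on the normalization. Linear intensity summed over all probe sets was between 4351200 and 4547300 in wounds, against 3689200 to 3885500 in controls, although the array medians were alike. After quantile normalization the log2 differences of the 3 bright FGFR2 probe sets were -0.44, 0.03 and 0.09, against -0.11, 0.34 and 0.26 before it. No sign changed, but the first difference grew and the others shrank. The summed level of the 11 measured epithelial markers was between 21858 and 22630 in wounds, against 12948 to 14040 in controls. Of these genes 4 rose, beside 2.04% of all probe sets, and 1 passed with the replicate block, beside 0.819%. A mean of at least 4 was reached by 9, and 718 of the 13548 probe sets at that level rose. The sums use the values before quantile normalization. After it, 1 epithelial marker was higher past the test, beside 121 of all 38439 probe sets. EPCAM, the brightest marker, then differed by 0.45, against 0.73 before. CDH1 and CLDN3 then differed by -0.03 and -0.10, against 0.37 and 0.22 before, while the others stayed above control. The part of the epithelium in the FGFR2 values was not tested.

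FGFR3 is a receptor tyrosine kinase best known for limiting the growth of cartilage. Its brightest probe set gave 6.25, 6.26 and 6.53 in wounds, against 6.66, 6.88 and 6.22 in controls, a log2 difference of -0.24 (95% interval -0.74 to 0.27; adjusted p = 0.768, limma). A second probe set gave 5.81, 6.13 and 5.84 in wounds, against 6.36, 6.63 and 5.66 in controls, a log2 difference of -0.29 (adjusted p = 0.822, limma). In both, wounds 1 and 2 were lower than controls 1 and 2, and wound 3 was higher than control 3.

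A further, dim FGFR3 probe set gave 3.26, 3.21 and 3.39 in wounds, against 3.36, 3.95 and 3.33 in controls. Its log2 difference of -0.26 (adjusted p = 0.716, limma) rested on control 2. The fourth differed by 0.01.

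FGFRL1 binds FGF ligands and heparan sulfate but lacks the kinase domain of the other receptors. Its brighter probe set gave 6.74, 6.56 and 7.29 in wounds, against 7.28, 7.12 and 7.14 in controls. Wounds 1 and 2 were under every control and wound 3 was just above them all. The log2 difference was -0.32 (95% interval -0.85 to 0.21), a fold of 0.802, with an adjusted p of 0.654 in limma.

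The dimmer FGFRL1 probe set gave 3.51, 3.60 and 4.21 in wounds, against 4.30, 4.09 and 4.66 in controls. It was lower in wounds in 3 of 3 pairs, with log2 differences of -0.78, -0.49 and -0.44, but wound 3 lay above control 2. The log2 difference was -0.57 (95% interval -1.23 to 0.08), a fold of 0.672. Its adjusted p was 0.428 in limma and 0.1175 with the replicate block. Both FGFRL1 probe sets shared the sign of the FGFR1 difference, and in both wound 3 was the highest of the wounds.

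**Figure D2:**
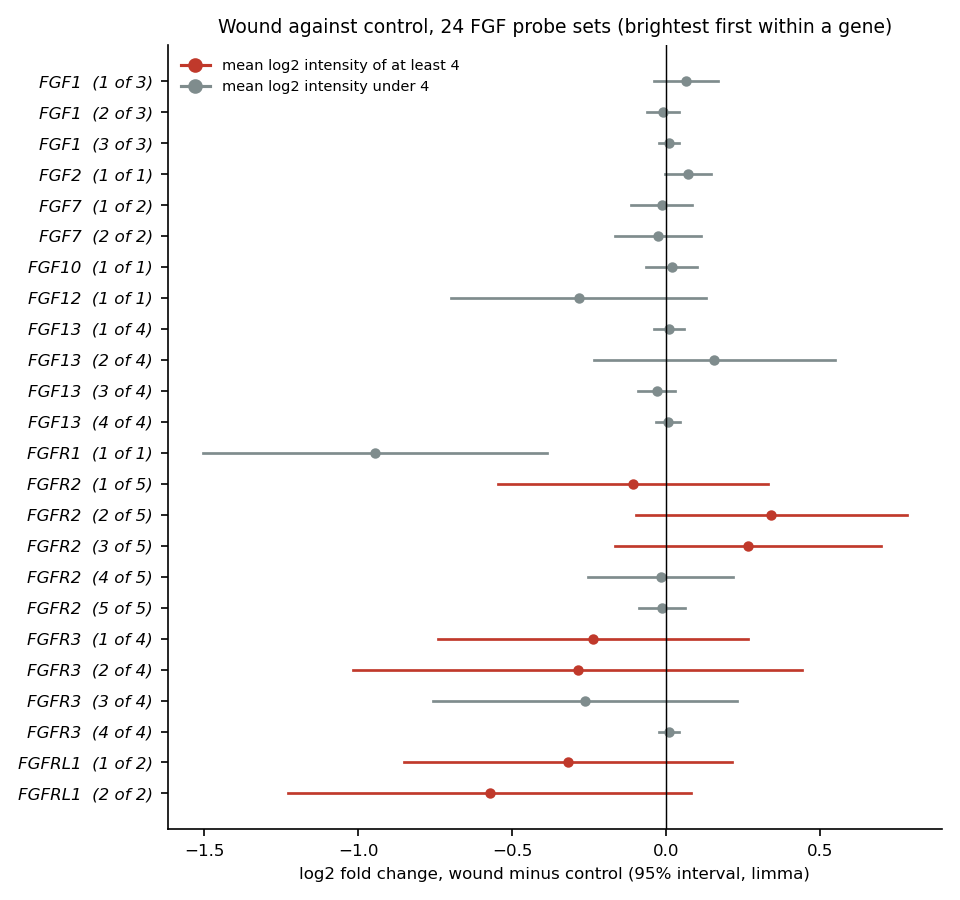
Log2 difference of wound minus control with its 95% limma interval for each of the 24 FGF probe sets, brightest first within a gene, in red where the mean log2 intensity was at least 4. In this unpaired fit FGFR1 alone has an interval clear of 0 before adjustment, from -1.50 to -0.39, and the intervals of the dim ligand probe sets are short.

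The pairs of equal replicate number showed how far the receptors followed the array. Of 8 receptor probe sets with a mean of at least 3.5, 7 were lower in wound 1 than in control 1, and 6 were lower in wound 2 than in control 2. In pair 3 only 2 were lower and 6 were higher. Pair 3 was thus the pair in which most receptor probe sets were not lower in the wound. Both of its arrays bear on this. In the brighter FGFRL1 probe set, wound 3 was the highest wound, at 7.29. In the brightest FGFR2 probe set, wound 3 was the lowest wound, at 9.93, and control 3 the lowest control, at 9.80. Control 3 was also the lowest control in both FGFR3 probe sets counted here, at 6.22 and 5.66. These probe sets share genes and arrays and are not independent of each other.

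**Figure D3:**
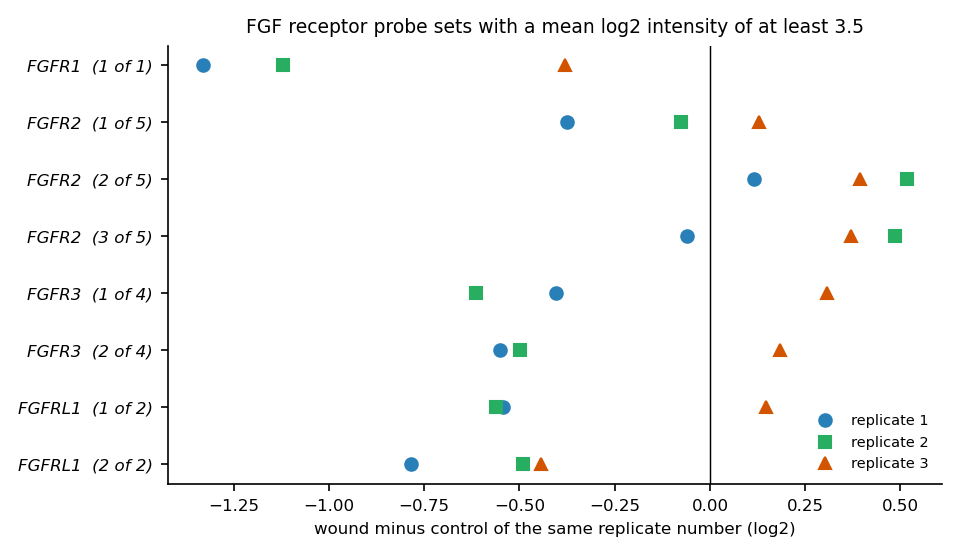
Wound minus control of the same replicate number, on the log2 scale, for the 8 FGF receptor probe sets with a mean of at least 3.5. Replicate 3 (triangles) lies above 0 for 6 of the 8, and replicate 1 (circles) lies below 0 for 7.

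For the 3 receptors with a brightest probe set of mean at least 5, the genes of most similar pattern over the 6 arrays were taken from 8400 probe sets, by Pearson's r. FGFR2 varied most like TMEM37 (r = 0.971), DCPS (r = 0.964) and the sterol regulator SREBF2 (r = 0.951). FGFR3 varied most like CHPT1 (r = 0.977), which makes phosphatidylcholine, TRIM7.2 (r = 0.976) and the stress-response factor ATF4 (r = 0.966). FGFRL1 varied most like TTYH3 (r = 0.999), the pseudokinase PTK7 (r = 0.994) and SMO (r = 0.992), the signal transducer of the Hedgehog pathway. With 6 arrays and 8400 probe sets compared, values of r near 1 are a description of these arrays, which share the wound and control grouping.

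The other FGF ligands and FGFR4 were dim throughout. Of 14 listed genes 13 were measured, each with a mean under 4. In limma 0 passed the test, and 0 had an unadjusted p under 0.05. Their log2 differences ran from -0.12 for FGF9 to 0.04 for FGF16, with a median of -0.0089. FGFR4, the remaining receptor kinase, differed by -0.07 (adjusted p = 0.817, limma). Among the ligands were FGF8, a limb and brain organiser, with a difference of -0.01, and FGF19, in humans a gut hormone of bile acid metabolism, with -0.0089.

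The list of co-receptors and binding proteins held 13 genes, 10 of them measured, with 1 that fell and 0 that rose, a share to be read against 0.304% and 2.04% of all probe sets. The median log2 difference was 0.0088, but -0.50 among the 5 genes with a mean of at least 4, so the sign of the median depends on the dim genes. In all, 3 of 10 had an unadjusted p under 0.05, of which CDH2 and FGFBP1 were higher in wounds. Such a p was found for 14.4% of all probe sets and for 4546 of the 13548 with a mean of at least 4. With the replicate block, FGFBP1 was the only gene of the list that passed, beside 0.819% of all probe sets. Of the 13548 with a mean of at least 4, 250 passed that fit as higher and 34 as lower. The large differences in this list were those of NCAM1, FGFBP1 and CDH2.

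NCAM1, a neural cell adhesion molecule that can bind FGFR1, fell in wounds. It gave 4.08, 4.16 and 4.36 in wounds, against 5.14, 5.69 and 5.70 in controls. The log2 difference was -1.31 (SE 0.19), a fold of 0.404, with an adjusted p of 0.0471 in limma and 0.0660 with the replicate block. The highest wound was still well under the lowest control.

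FGFBP1, a carrier that releases FGFs from the matrix, gave 10.43, 9.92 and 9.36 in wounds, against 9.08, 8.74 and 8.19 in controls. The pairs differed by 1.35, 1.18 and 1.17, nearly the same step in each. On average the log2 difference came to 1.23 (SE 0.37), a fold of 2.35. The adjusted p was 0.215 in limma, and 0.0427 with the replicate block.

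CDH2, or N-cadherin, which binds FGFR1 and slows its internalisation, gave 6.02, 6.52 and 6.15 in wounds, against 5.07, 5.07 and 5.43 in controls. All wounds were above all controls, with a log2 difference of 1.04 and an adjusted p of 0.0679 in limma. With its own test, the paper lists this CDH2 probe set as up-regulated. FLRT2 and FLRT3, membrane proteins that bind FGF receptors, differed by -0.55 and -0.50 (adjusted p = 0.606 and 0.740, limma). The hormone FGF co-receptors KL and KLB were dim and differed by 0.01 and 0.03.

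**Figure D4:**
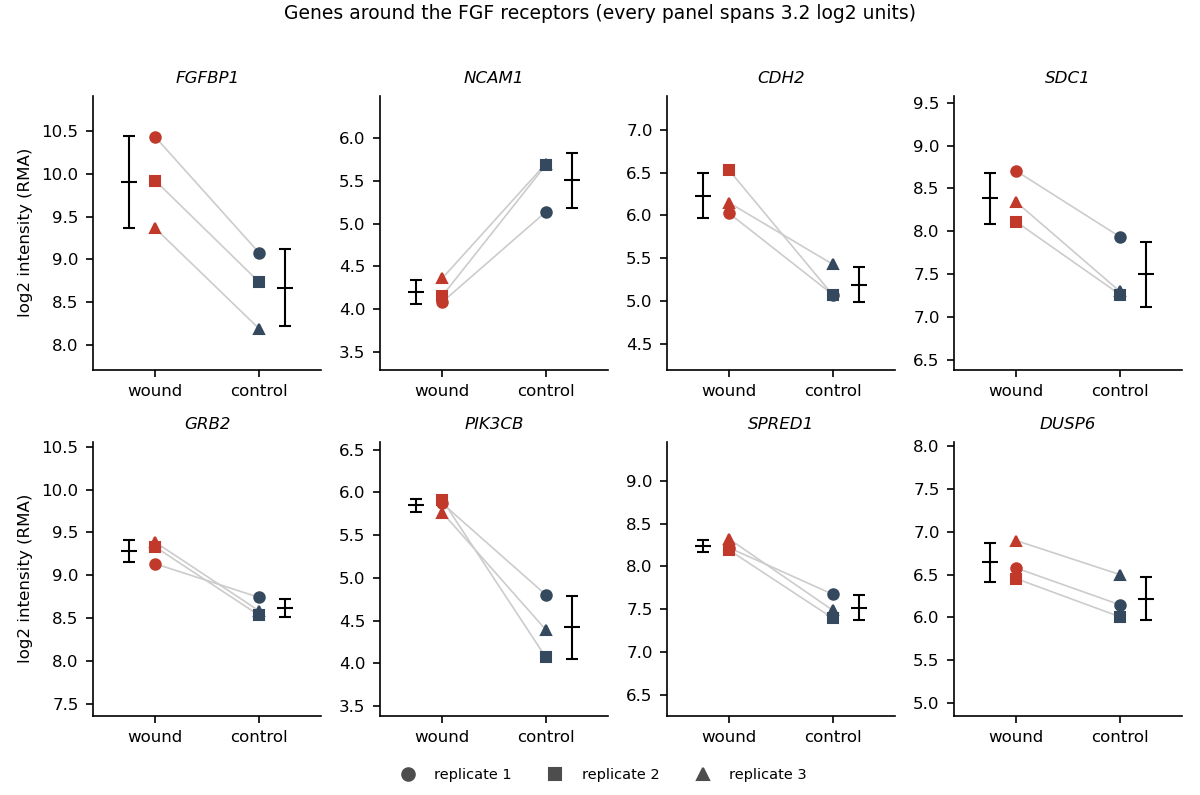
RMA log2 intensity of 8 genes around the FGF receptors in wound (left, red) and control tissue (right, dark), with lines joining equal replicate numbers and bars giving mean ± SD (n = 3 each). The lines of FGFBP1 and DUSP6 run nearly parallel, and NCAM1 is lower on every wound array. SDC1 and DUSP6 were chosen after their values were seen.

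Heparan sulfate proteoglycans carry the sugar chains that FGFs need to reach their receptors, and a set of enzymes builds and trims these chains. Of 34 listed genes 32 were measured, 19 with a mean of at least 4, and 0 passed the test in limma. At an unadjusted p under 0.05 there were 7, beside 14.4% of all probe sets and 4546 of the 13548 with a mean of at least 4. In wounds 24 were below control and 8 above, with a median of -0.18. This is to be read against 0.0011 over all probe sets and 0.12 over the 13548 with a mean of at least 4. The median was -0.07 without wound 2 and -0.06 when all probe sets of a gene were averaged. Without overlap 2 were higher and 6 lower, against 13.7% and 6.12% of all probe sets, and 3747 and 1361 of the 13548 with a mean of at least 4.

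The brightest members of that list were SDC2, a syndecan of mesenchymal cells, with a log2 difference of -0.21 (adjusted p = 0.576, limma), and GPC1, a lipid-anchored glypican, with -0.24 (adjusted p = 0.917, limma). After quantile normalization they differed by -0.60 and -0.46. Also described, after their values were seen, were the 4 genes of largest difference and HS3ST1. Those 4 were HSPG2, SDC3, AGRN and SDC1, of which only SDC1 was higher in wounds. SDC3 differed by -1.31, without overlap, and AGRN by -0.90 (adjusted p = 0.146 and 0.594, limma). At a minimum mean of 4, SDC3 and HS3ST1 passed the test, both lower in wounds (adjusted p = 0.0396 and 0.0269, limma). At that minimum 353 of 13548 probe sets passed as lower. SDC1, a syndecan of epithelia, gave 8.70, 8.11 and 8.34 in wounds, against 7.93, 7.26 and 7.30 in controls, a log2 difference of 0.89 (adjusted p = 0.200, limma). HSPG2, the basement membrane proteoglycan perlecan, gave 6.03, 6.21 and 7.43 in wounds, against 8.16, 8.27 and 7.73 in controls, a log2 difference of -1.50 (adjusted p = 0.198, limma). Wound 3 was again the nearest to the controls in HSPG2, and without it the adjusted p was 0.0385.

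Of the adaptors and kinases that carry the receptor signal, 30 of 37 listed genes were measured. Of these 2 rose, GRB2 and PIK3CB, and 0 fell, with a median of 0.05, beside 2.04% higher and 0.304% lower over all probe sets. In wounds 17 were above control and 13 below. Without overlap 9 were higher and 5 lower, beside 13.7% and 6.12% of all probe sets. At an unadjusted p under 0.05 there were 12, beside 14.4% of all. A mean of at least 4 was reached by 22 of the 30 genes. Of the 13548 probe sets at that level, 4546 had such a p, and 3747 were higher and 1361 lower without overlap. With the replicate block neither GRB2 nor PIK3CB passed, and MAP2K1 was the 1 gene that did, beside 0.819% of all probe sets. Of the 13548 with a mean of at least 4, 250 passed that fit as higher and 34 as lower.

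GRB2, the adaptor that links receptors to RAS activation, gave 9.13, 9.33 and 9.38 in wounds, against 8.74, 8.53 and 8.58 in controls. This gave a log2 difference of 0.66 (SE 0.091), a fold of 1.58, with an adjusted p of 0.0436 in limma and 0.130 with the replicate block. After quantile normalization GRB2 differed by 0.38. PIK3CB, a catalytic chain of PI3K, gave 5.87, 5.91 and 5.76 in wounds, against 4.80, 4.07 and 4.39 in controls. Its log2 difference was 1.43 (SE 0.20), a fold of 2.69, with an adjusted p of 0.0447 in limma and 0.0950 with the replicate block.

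Among the bright genes of this list that did not pass, MAP2K1, the kinase that activates ERK, differed by 0.31 (adjusted p = 0.0670 in limma, 0.0487 with the replicate block), and by 0.06 after quantile normalization (adjusted p = 0.839, limma). PDPK1, a kinase downstream of PI3K, differed by 0.17 (adjusted p = 0.711, limma), and by -0.10 after quantile normalization. After PIK3CB, the largest differences of the list were lower in wounds, each without overlap. FRS3, which was dim, differed by -0.82 (adjusted p = 0.0885, limma) and GAB2 by -0.71 (adjusted p = 0.164, limma). PIK3R1 differed by -0.77, with an adjusted p of 0.0521 in limma, and of 0.0261 at a minimum mean of 4.

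Genes that FGF signals switch on, and those that restrain the signal, formed a list of 29 with 26 measured. Of these 1 rose, SPRED1, and 0 fell, beside 2.04% higher and 0.304% lower over all probe sets. The median was 0.06, and 0.43 among the 15 genes with a mean of at least 4. Over all probe sets it was 0.0011, and 0.12 over the 13548 with a mean of at least 4. At an unadjusted p under 0.05 there were 9, beside 14.4% of all probe sets and 4546 of the 13548 with a mean of at least 4. Without overlap 10 were higher and 1 lower, beside 13.7% and 6.12% of all, and 3747 and 1361 of the 13548 with a mean of at least 4. With the replicate block JUN and DUSP6 passed and SPRED1 did not, beside 0.819% of all probe sets. Of the 13548 with a mean of at least 4, 250 passed that fit as higher and 34 as lower.

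SPRED1, which restrains RAS signalling, gave 8.22, 8.19 and 8.32 in wounds, against 7.67, 7.39 and 7.48 in controls. This gave a log2 difference of 0.72 (SE 0.084), a fold of 1.65, with an adjusted p of 0.0326 in limma and 0.0774 with the replicate block. DUSP6, an ERK phosphatase widely used as a readout of FGF signalling and described after its values were seen, gave 6.58, 6.45 and 6.90 in wounds, against 6.15, 6.01 and 6.50 in controls. Its pairs differed by 0.43, 0.45 and 0.40, a log2 difference of 0.42 with an adjusted p of 0.409 in limma and 0.0440 with the replicate block.

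The brightest genes of the list that did not pass were the immediate-early transcription factors JUN and EGR1. JUN gave 10.33, 9.86 and 10.07 in wounds, against 9.50, 9.03 and 9.22 in controls, a log2 difference of 0.84 (adjusted p = 0.104 in limma, 0.0417 with the replicate block), and of 0.49 after quantile normalization. EGR1 gave 10.16, 9.92 and 10.19 in wounds, against 8.74, 7.89 and 9.16 in controls, a log2 difference of 1.50 (adjusted p = 0.132, limma). In all, 16 of the 26 genes were above control and 10 below, beside 20007 above and 18432 below among all 38439 probe sets. Only 15 of the 26 had a mean of at least 4, a level at which 8387 of 13548 probe sets were above control. DUSP5 had the largest difference of the list, 1.86 (adjusted p = 0.133, limma), with every wound above every control. DUSP1, MYC and DUSP7 differed by 1.03, 0.85 and 0.83 (adjusted p = 0.216, 0.126 and 0.182, limma). Of the remaining members some were also above control, among them RASA1 by 0.43 and CBLB by 0.40 (adjusted p = 0.627 and 0.134, limma). Others had differences at or under 0. Some of the genes named here are given after their values were seen. CCND1, also bright, differed by -0.51, with pairs at -0.59, -0.41 and -0.53 (adjusted p = 0.398 in limma, 0.0672 with the replicate block). SPRED2 and SPRY2, restrainers of RAS signalling like SPRED1, differed by -0.92 and -0.37 (adjusted p = 0.394 and 0.625, limma). NF1, which inactivates RAS, differed by -0.61 (adjusted p = 0.122, limma) and was the gene lower without overlap. ETV5 and ETV4, transcription factors switched on by FGF signals, were dim and differed by -0.25 and -0.00062.

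The 4 calls of the pathway lists were close to the threshold, and with the replicate block none of the 4 passed. After quantile normalization the adjusted p was 0.0744 for NCAM1, 0.144 for GRB2, 0.0859 for PIK3CB and 0.103 for SPRED1 (limma). JUN, EGR1 and DUSP6 are also switched on by other growth factors and by inflammation.

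Markers of the remaining cell types were read in the same way. Of 15 myeloid markers 12 rose, beside 2.04% of all probe sets and 718 of the 13548 with a mean of at least 4. With the replicate block 2 passed, beside 0.819% of all probe sets. The median was 2.21, and their sum was between 10845 and 12785 in wounds, against 2518 to 3340 in controls. Of 9 neuronal markers and 4 red cell markers 0 passed the test in limma, with medians of -0.10 and -0.09. At an unadjusted p under 0.05 there were 1 neuronal and 0 red cell markers, beside 14.4% of all probe sets. The neuronal sum was between 206 and 333 in wounds, against 292 to 332 in controls, and the red cell sum was between 53145 and 62642 in wounds, against 55768 to 63528 in controls. Most of the red cell sum came from HBA1 and HBAD. HBA1, HBAD, EPB42 and SLC4A1 differed by 0.03, -0.07, -0.11 and -1.10. The part of these cells in the pathway values was not tested.

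**Figure D5:**
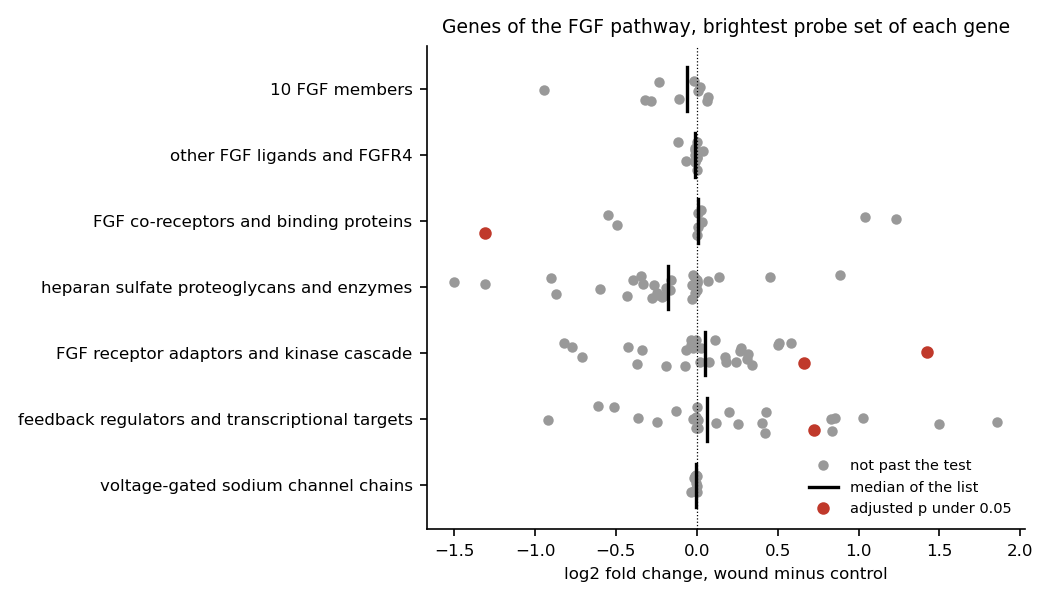
Log2 difference of wound minus control for the brightest probe set of each gene, by list, with the median of each list as a black line and genes past the limma test in red. The 10 FGF members lie between -0.94 and 0.07, the other FGF ligands and the sodium channel chains lie close to 0, and NCAM1, PIK3CB, GRB2 and SPRED1 are the 4 genes past the test.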

How the data were processed

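Wound and control CAM of 3 eggs were measured on 6 Affymetrix arrays, 1 per sample. The values the authors deposited are log2 intensities of probe sets, made by RMA according to the submitters' processing notes. The sources used here give no version of it. The array medians are alike, but the arrays' distributions are not identical, so quantile normalization changes bright probe sets. Low log2 values leave little room for a difference, so changes of dim probe sets can be understated. Scaling in GCOS, named in the methods, gives linear signals, which these values are not. Arrays carry no counts, and their number limits the precision.

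Of 38535 probe sets, 96 controls were left out. In the platform annotation, which can be old, 27168 of the rest have 1 gene symbol, 177 several and 11094 none, and none was named from several. All 10 member symbols were found in the RefSeq gene table. The table of values had 0 unused columns.

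limma 3.58.1 in R 4.3.3 (lmFit, eBayes) compared 3 wounds with 3 controls, in place of the methods' SAM. SAM with a rank statistic estimates its false discovery rate by permutation. An exact rank-sum test of single probe sets, 3 against 3, cannot go below p = 0.1. Only the brightest probe set of a gene entered a list. A pathway list names every gene past the test, up to the 4 of largest fold, and up to 2 bright genes that are not. Some further genes were named after their values were seen. The cell type marker lists are given mainly as counts and sums, without naming every gene past the test. Lists of 14 or fewer measured genes may be named in full. Likeness used the 3 genes of highest r. The members and lists were chosen with earlier results of these data known. The methods state that each egg gave both samples, but not which replicate numbers belong to an egg. Deviations from the group means correlated at 0.58, 0.63 and 0.45 (Pearson's r over probe sets) between wound and control of the same number. All exceed 0.1, so equal numbers were read as pairs, and the replicate block is the paired fit given beside the calls. The main fit, its intervals and the words rose and fell do not use the pairing. With the block NCAM1, GRB2, PIK3CB and SPRED1 did not pass, while FGFBP1, MAP2K1, JUN and DUSP6 did. Alternatives were quantile normalization, centring, the replicate block, filters on dim probe sets, eBayes with trend and robust, an exact rank-sum test, the mean of a gene's probe sets, and leaving out each array. The code was tested on simulated data. Further software was Python 3.11.15, scipy 1.17.1, pandas 2.3.3, matplotlib 3.10.9 and numpy 2.4.6. No genome was used, and sequences are not shown.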

Additional observations from a re-analysis of the deposited data

How the results depend on the processing

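The counts of FGF member probe sets, other FGF ligands and sodium channel chains past the test were 0 under every alternative run, except that 1 member probe set, FGFR1, passed without wound 3. FGFR1 had a mean of 3.94, so the minimum mean of 4 left it out. A minimum of 3, added after seeing the data, gave it an adjusted p of 0.0501. No value could be had for the other FGF ligands or the sodium channel chains at a minimum of 4, since all are dimmer. The co-receptor, heparan sulfate, cascade, feedback, marker and whole-array counts were 1, 0, 2, 1, 18 and 902. Those that moved by over 1.5 times were, with quantile normalization, co-receptors 0, cascade 0, feedback 0, markers 9 and all probe sets 177, and with centring, heparan sulfate 1. At a minimum of 4 they were co-receptors 2, heparan sulfate 2, cascade 4, feedback 5, markers 29 and all 1658, and at the added minimum of 3, co-receptors 2, heparan sulfate 1, cascade 5, feedback 3 and all 1782. With the replicate block, which pairs the samples, they were cascade 1, feedback 2, markers 3 and all 315. With trend and robust they were cascade 1, feedback 0 and all 460. The exact rank-sum test passed 0 in each list and 0 of all, since 3 against 3 cannot reach the threshold. Leaving out 1 array gave 0 to 1 member probe sets, 0 to 1 member genes, 0 to 0 other FGF ligands, 0 to 1 co-receptors, 0 to 2 heparan sulfate genes, 0 to 2 cascade genes, 0 to 1 feedback genes, 0 to 0 sodium channel chains, 1 to 26 markers and 32 to 1211 of all. The median of the sodium channel chains lay between -0.02 at the added minimum of 3 and 0.0048 without control 2. Adjusted p without 1 array reached 0.154 for NCAM1, 0.151 for GRB2, 0.153 for PIK3CB and 0.120 for SPRED1. Among these fits only those without control 1 kept NCAM1, PIK3CB and SPRED1 past the test, while GRB2 missed it in each of the 6. The 32 came without control 3, and the 1211 and the 26 without wound 3. The causes were not tested. No called value changed sign, and 3 arrays a group limit the precision.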
